A study of Mus musculus with 4 samples.

Results

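Genes of the cytoskeleton were followed in control hippocampus: the tubulins of microtubules, the proteins that bind microtubules or walk along them, the actins with their nucleators, cutters and myosin motors, and the neurofilaments. Members were taken by gene symbol (named symbols, or symbols that begin as those of these families do) among the probe sets annotated to 1 gene. This gave 75 genes of the 8251 that have a probe set to themselves, measured by 101 probe sets out of 12422 on the array, of which 10833 had 1 symbol. Another 7 probe sets carried several symbols, at least 1 of them from these families, and were not counted. The 4 samples were total RNA of hippocampal area CA1, 1 array each, from young male C57BL/6J mice that were handled as controls and had no other treatment. Their RNA was taken 1, 2, 4 and 6 hours after the last shock given to the mice of the experiment they served, with 1 sample at each time. No shocked mouse was analysed here. Whether 1 animal or a pool made up a sample is not stated, and time, animal, dissection and array cannot be told apart.

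A neuron holds its shape and its long-range traffic on these polymers. Microtubules are built from alpha- and beta-tubulin dimers, seeded by gamma-tubulin, steadied by microtubule-associated proteins and shortened by stathmins. Kinesins carry cargo mostly towards the growing end, down the axon, and dynein carries it back to the cell body. Neurofilaments set the calibre of the axon. Actin fills the dendritic spines, where the Arp2/3 complex branches filaments, cofilin severs them and myosins pull cargo along them. In CA1 pyramidal neurons these systems are studied for the growth and reshaping of spines.

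Signals are the deposited values on a linear scale. A difference is a log2 difference between the named sample and the mean of the other 3, after quantile normalization of the arrays and a floor at a signal of 35.1, and it is followed by the SD of those 3. Of the 101 probe sets, 75 passed the filter on low values and were tested, and they belonged to 61 genes. The other 26 had signals of 1.3 to 285, and 7 of these lay at or below the floor in all 4 samples. Signals of different probe sets were not set against each other, because each has its own binding strength. The label of the tissue was checked on markers. Snap25, a synaptic protein of neurons, had signals of 17210 to 19258 and Wfs1, a gene of CA1 pyramidal cells, 1964 to 2797, while the probe set of Camk2a, a kinase abundant in these cells, had only 29.7 to 94.9.

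The 1-hour sample stood apart and its state has to be known first. In control probe sets for Gapdh, a glycolytic enzyme, the 1-hour sample had a 3' over 5' signal ratio of 4.52, against 1.18 to 1.37 in the other 3. Markers of the choroid plexus, 6 genes with a probe set, summed to a signal of 3464 there, against 1062 to 1319 elsewhere. Most of this was Ttr, a carrier protein made by that tissue, with 2246 there against 143 to 353 (adjusted p 0.0142 by limma), while Igfbp2 lay at a difference of 0.00. The part of RNA quality or of dissection in any 1-hour difference was not tested. In bulk tissue, fewer cells of a type and less RNA per cell cannot be told apart.

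In the 1-hour sample 11 of the 75 tested probe sets (14.7%), from 10 genes, were lower than in the other 3 samples at an adjusted p under 0.05, against 2.11% of all 7453 tested probe sets. None was higher, against 0.242% of all. The genes were both Actb probe sets, the axonal kinesins Kif5c, Kif5a and Kif1a, the tubulins Tubb4a, Tuba1c, Tuba1a, Tubb5 and Tubb3, and cofilin Cfl1. Their differences ran from -3.17 to -0.54 and their adjusted p from 0.0062 to 0.0397 (limma, Benjamini-Hochberg over all tested probe sets). All 11 had their lowest signal in the 1-hour sample. The fit takes its spread from the other 3 samples, drawn towards a prior from all tested probe sets of similar signal level. Its p-values therefore do not rest on the printed SD alone. The fit also assumes that the single 1-hour sample varies as the others do. It describes 1 array, not the 1-hour time. No member was called with the floor at the 40th percentile or with a prior that ignores signal level, and 4 were called with no filter on low values. Of those 4, 3 were higher, each with the other 3 samples at the floor. Leaving out the 2-hour sample gave 5 calls of members, and leaving out the 6-hour sample gave 6. The calls over all probe sets were also fewer than 175, at 87 and 108, and they were 3 with the higher floor and 0 with the plain prior.

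**Figure D1:**
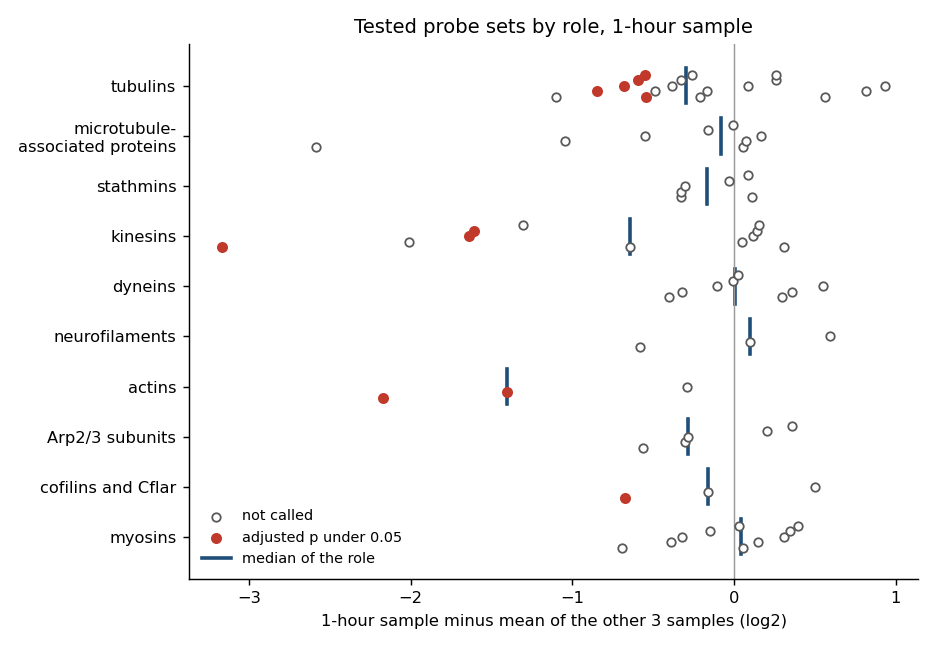
Difference of the 1-hour sample from the mean of the other 3 samples (horizontal axis, log2) for the 75 tested probe sets, by role (rows). Filled points had an adjusted p under 0.05, open points did not, and bars mark the median of a role. The tubulin row also holds gamma-tubulins, Tubgcp3 and Tubgcp4. The 11 filled points lie left of zero, in the tubulins, kinesins, actins and cofilins.

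By size, 10 of the 75 tested probe sets were 2-fold or more lower in the 1-hour sample and 0 were 2-fold or more higher, against 4.56% and 1.78% of all tested probe sets. The median difference over the 75 was -0.16 in the 1-hour sample, where the median over all tested probe sets was 0.05. In the 2-, 4- and 6-hour samples the members' medians were 0.09, 0.02 and 0.09, beside 0.01, 0.01 and 0.00 over all. The 1-hour sample held the lowest value in 36 of the 75 (29.1% of all probe sets) and the highest in 20 (34.9% of all). The sign of the 1-hour difference depended on the scaling in 4 of the 75, namely Dynll1, Map1lc3b, Myo5a and Stmn2 (1 probe set each), all of which lay within 0.11 of zero on the log2 scale.

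The tubulin role held the alpha- and beta-tubulins of the microtubule wall. By their symbols it also held gamma-tubulins, their partners Tubgcp3 and Tubgcp4, and a pseudogene. Of its 21 probe sets from 15 genes 18 were tested, 5 were called lower in the 1-hour sample and 0 higher. Over all tested probe sets these shares were 2.11% and 0.242%. All 5 called tubulin probe sets were of alpha- or beta-tubulins. Tubb4a, a beta-tubulin of brain, had signals of 5904, 9482, 9354 and 10925 in the 1-, 2-, 4- and 6-hour samples (difference -0.85, SD 0.15, adjusted p 0.0211 by limma). The 1-hour value lay below all others and the other 3 lay close together. Tuba1c, an alpha-tubulin, had 17264, 24949, 25234 and 26331 (-0.68, SD 0.11, adjusted p 0.0182). These calls, unlike those of the next 3 probe sets, held on the values as deposited and with arrays scaled to equal medians. Tubb5, a broadly expressed beta-tubulin, had 7827, 11118, 10769 and 10785 by 1 of its probe sets (-0.55, SD 0.05). Tubb3, the beta-tubulin used to mark neurons, had 7370, 9562, 10600.2 and 10376 by 1 of its probe sets (-0.54, SD 0.05). Tuba1a, the main alpha-tubulin of growing neurons, had 10935, 13887, 16009 and 14815 by 1 of its probe sets (-0.59, SD 0.06). For these 3 the adjusted p was 0.0348, 0.0397 and 0.0244, but 0.0530, 0.0754 and 0.0861 on the values as deposited. Without the 2-hour sample no tubulin was called, and without the 6-hour sample Tuba1c and Tubb4a were.

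Other probe sets of the same tubulin genes did not give the same picture. The second Tuba1a probe set had 34031 in the 1-hour sample, against 20958, 25929 and 22519, a difference of 0.26 (SD 0.08, adjusted p 0.22). On the values as deposited that difference was 0.56 and its adjusted p 0.0477, so that the 2 probe sets of 1 gene pointed in opposite directions. The second Tubb3 probe set was highest in the 1-hour sample, at 3374, against 2626, 3002 and 2698 (0.26, SD 0.07). The second Tubb5 probe set had 5042, 6373, 7438 and 6336 and lay on the same side as the first (-0.49, SD 0.10, adjusted p 0.103). Tubb2a, another beta-tubulin, had 14092, 15088, 18132 and 15830 by 1 probe set and 249, 169, 316.5 and 266 by the other, with differences of -0.39 (SD 0.10) and 0.09 (SD 0.49). Tubulin genes are close copies of each other, and most of these probe sets carry a suffix that marks possible cross-hybridization, so a signal cannot be assigned to 1 tubulin gene with confidence.

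Gamma-tubulin, which seeds microtubules, also lay low in the 1-hour sample without passing the test. Tubg1 had 417, 785, 874 and 1148 in the order of hours (-1.10, SD 0.28, adjusted p 0.0731, and 0.0386 on the values as deposited). Its paralog Tubg2, by a suffixed probe set, had 555.5, 685, 728.5 and 530.3 and no such order. Tubgcp4, a partner of gamma-tubulin in the nucleating ring complex, went the other way, with 536 in the 1-hour sample, against 309.9, 288 and 273 (0.94, SD 0.08, adjusted p 0.11). Tubgcp3, of the same complex, had 371 against 256 to 260.5 (0.56, SD 0.02, adjusted p 0.35). Tubb4b had the widest range of any tested tubulin, with 242, 124, 277 and 82.7, and its 1-hour value lay inside that of the others. Tuba4a, Tuba8 and Tubb6 had ranges of 0.41 to 0.75 on the log2 scale. The pseudogene Tubb2a-ps2, which fits the symbol rule but makes no known tubulin, had 159 in the 1-hour sample, against 14.0 to 33.8, below the floor, elsewhere.

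The microtubule-associated proteins had 8 of 9 probe sets tested and 0 called. Map2, the protein that bundles microtubules in dendrites, had the widest range of the group, 3.24 on the log2 scale. Its signals were 25.4, 338, 103 and 268 in the order of hours, so the 1-hour value lay below the floor and the 4-hour value was also low. The difference of -2.59 (SD 0.87) is therefore only a bound, at least 6.00-fold lower in the 1-hour sample, and its adjusted p was 0.108. A floor at the 40th percentile gave a difference of -0.93. Map1lc3a, an LC3 protein of autophagosomes that was first found bound to microtubule-associated proteins, had 828, 1462, 1642 and 2142 (-1.04, SD 0.28, adjusted p 0.0651, and 0.0366 on the values as deposited). Its close relative Map1lc3b had the smallest range of the 75, with 1421, 1469.9, 1443 and 1418 by 1 probe set, a range of 0.06. The other Map1lc3b probe set had 5035, 4792, 4521 and 4320.1, a range of 0.15.

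Map4, a microtubule stabilizer found in many cell types, had 965, 1453, 1353 and 1527 by 1 probe set (-0.55, SD 0.08, adjusted p 0.164) and 208, 186.5, 199 and 187 by the other (0.17, SD 0.08). Its probe sets thus differed in direction. Map6, which protects microtubules from cold, had 784, 864, 641 and 788, and Map7, a partner of kinesin-1, 562.5, 711.5, 607.5 and 625, with no sample far from the rest. Map1b, a large axonal protein, failed the filter with 34.9, 37.3, 137 and 157. The 1- and 2-hour samples lay near the floor there and the 4- and 6-hour samples above it.

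Stathmins bind tubulin dimers and shorten microtubules. Of their 8 probe sets 6 were tested, 0 were called and 0 had a range of 2-fold. Stmn1 had 3985, 5209, 3719 and 5715 in the order of hours, with the 1- and 4-hour samples low and the 2- and 6-hour samples high. Stmn2, a growth-associated protein of neurons, also had its 1- and 4-hour samples below the others in both tested probe sets, with 3748, 4506, 3905 and 5175 in 1 and 2558.5, 2804, 2278.5 and 2816 in the other. The lowest of the 4 was the 1-hour sample in the first and the 4-hour sample in the second. Stmn3 had 4275, 4639, 5858 and 5036 by 1 probe set, where the 4-hour sample was highest, and 528, 524, 459 and 543 by the other, where it was lowest. Stmn4 had 2179 to 2593. The second Stmn1 probe set lay below the floor in all samples, as those of Tuba4a, Tubgcp4, Arpc5l, Kif20a and Myo5a and the single Myo1e probe set also did.

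Kinesins are the motors of axonal transport. Of 23 probe sets from 18 genes 11 were tested, 3 were called lower in the 1-hour sample, 0 higher, and 5 were 2-fold or more lower. Over all tested probe sets these shares were 2.11%, 0.242% and 4.56%. Kif5a gave 2 of the 5 that were 2-fold or more lower. Kif5c, a neuronal heavy chain of kinesin-1, had 16.6 in the 1-hour sample, under the floor, against 288, 243 and 458. It was at least 8.98-fold lower there (difference -3.17, SD 0.47, adjusted p 0.0158), and the gap to the nearest sample exceeded the whole spread of the other 3. A floor at the 40th percentile gave a difference of -1.48 for Kif5c, -0.44 for the second Kif5a probe set described next and -0.61 for Kif1b. Kif5a, the second neuronal heavy chain, had 339.6, 1038, 1089.6 and 1058 by 1 probe set (-1.61, SD 0.04, adjusted p 0.00986, 3.05-fold lower). Its other probe set had 38.5, 167, 117 and 182 (-2.01, SD 0.30, adjusted p 0.117). Both Kif5a probe sets lay lowest in the 1-hour sample by a wide margin.

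Kif5b, the heavy chain of kinesin-1 found in all tissues, had a different order. It had 1084, 1216, 949.5 and 874, with the 1-hour sample in the middle (0.14, SD 0.25, adjusted p 0.79). Kif1a, the motor of synaptic vesicle precursors, had 280.4, 673, 1021 and 1050.4 (-1.64, SD 0.36, adjusted p 0.031, 3.11-fold lower). Here the 2-hour sample also lay below the 4- and 6-hour samples, and the call was lost without either of these. Kif1b, which carries mitochondria and vesicle precursors, had 69.9, 195, 118 and 224 by 1 probe set (-1.31, SD 0.45, adjusted p 0.262), while its second probe set was above the floor only in the 1-hour sample, at 66.7. Kif1c had 442 in the 1-hour sample, against 367.5 to 376 (0.31, SD 0.02, adjusted p 0.552). Kif2a, Kif3a, Kif3c and Kif22 had 1-hour differences of 0.05, -0.64, 0.12 and 0.16, and Kif3a at 151 against 204 to 279.5 was the lowest of these (adjusted p 0.396).

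**Figure D2:**
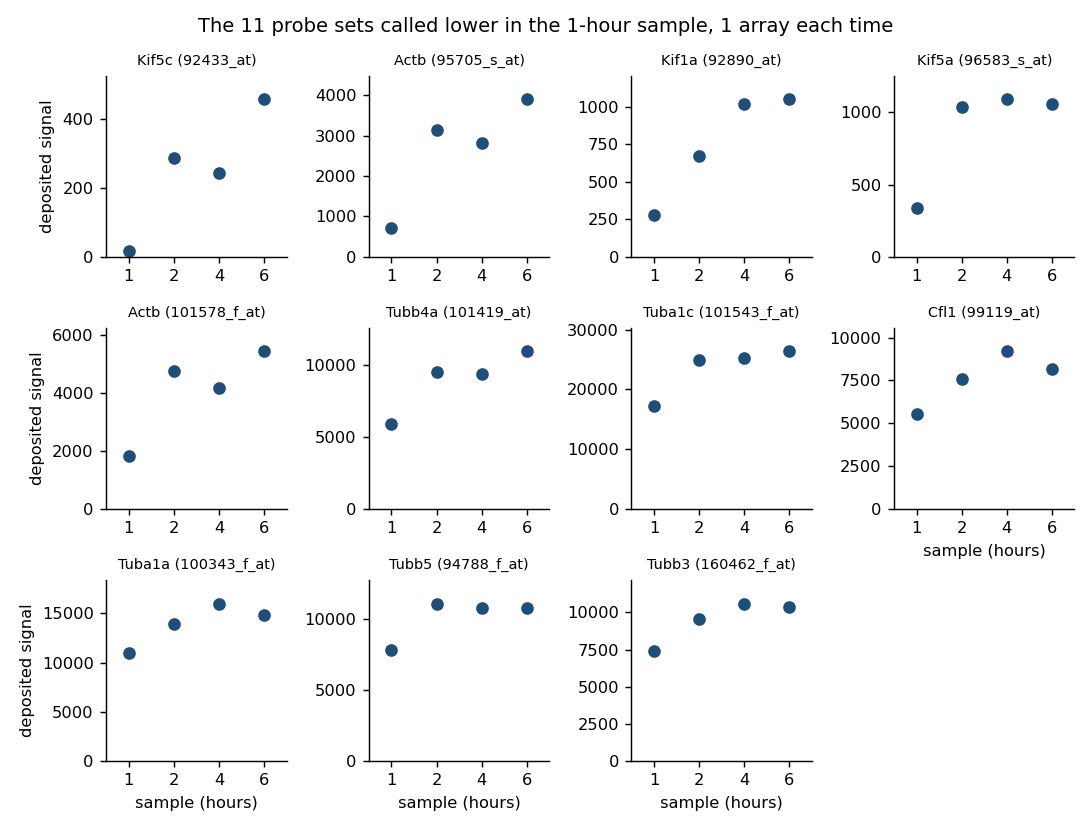
Deposited signal (vertical axes, linear, from 0, with a separate scale in each panel) in the 1-, 2-, 4- and 6-hour samples (horizontal axes) for the 11 probe sets called lower in the 1-hour sample; each point is 1 array. The 1-hour point is the lowest in all 11 panels, from 16.6 against 243 or more in Kif5c to 7370 against 9562 or more in Tubb3.

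Of the motors that serve dividing cells, Kif11, Kif20a, Kif23, Kif2c and Kif4 had no tested probe set, while Kif22, which binds chromosomes on the spindle, had signals of 665, 759.8, 502 and 607 and was tested. Kif16b, Kif3b and Kif9 also had no tested probe set. Kif11 had 58.4, 41.9, 53.8 and 114 and Kif20a 119.9, 36.9, 41.9 and 37.7 by 1 probe set. Kif3b, a subunit of kinesin-2, had 75.1, 285, 36.1 and 155 and was the most variable member above the floor in all samples, with a range of 2.94 on the log2 scale. Kif11, Kif20a and Kif3b were not tested.

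Cytoplasmic dynein, the motor that runs back to the cell body, had 8 of 10 probe sets tested, 0 called and 0 with a range of 2-fold. Its heavy chain Dync1h1 had 3083, 3591, 4366 and 4159 in the order of hours (-0.40, SD 0.14, adjusted p 0.236). The intermediate chains Dync1i1 and Dync1i2, which hold the cargo adaptor dynactin, had 3262 to 4233 and 529.5 to 609. Among light chains, Dynll1 had 16209, 15036, 15573 and 17692. Dynll2 had 1347, 1463, 1077 and 1503 by 1 probe set and 1212, 1049.8, 875 and 1099 by the other, and in both the 4-hour sample was lowest. Dynlrb1 was also lowest there by 1 probe set, with 873, 609, 481 and 764, but not by the other, with 2463, 1809, 1896 and 2027. Both Dynlrb1 probe sets were highest in the 1-hour sample (0.55, SD 0.32, and 0.36, SD 0.07).

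The 3 neurofilament chains, which are built into 1 filament, had 3 different orders. Nefl, the light chain, had 525 in the 1-hour sample, against 846, 786 and 793 (-0.58, SD 0.05, adjusted p 0.196). Nefm, the medium chain, had 221 in the 1-hour sample, against 147.5, 184 and 125 (0.59, SD 0.28, adjusted p 0.513). Nefh, the heavy chain, had 907, 898, 836 and 849.9 in the order of hours, a range of 0.13 that was the second smallest of all tested members. None of the 3 was called, and the 1-hour sample was lowest in Nefl and highest in Nefm.

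For the actins, the cytoplasmic pair Actb and Actg1 differed. Actb had 709.6, 3127, 2825 and 3894 by 1 probe set, 4.51-fold lower in the 1-hour sample than in the mean of the others (difference -2.17, SD 0.26, adjusted p 0.0062). By the other it had 1829, 4746, 4186 and 5431, 2.65-fold lower (-1.40, SD 0.20, adjusted p 0.0113). The 1-hour sample lay far below the others in both. The other 3 had ranges of 0.52 and 0.41 on the log2 scale, beside a median of 0.37 over all tested probe sets. Actg1, the gamma isoform, had 16704, 18054, 18499.6 and 19987 (-0.29, SD 0.07, adjusted p 0.175).

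The array also holds control probe sets against beta-actin, outside the tests, and these lay close together. On the deposited log2 scale the 5', middle and 3' beta-actin controls differed by -0.15, -0.13 and 0.19 in the 1-hour sample, beside -2.20 and -1.38 for the Actb probe sets on the same scale. Their signals in the 1-hour sample were 16054, 22009.8 and 37515, against 16715 to 18391, 23768 to 24524 and 32129.9 to 33401 in the others. Their 3' over 5' ratio was 2.34 in the 1-hour sample, against 1.76 to 2.00. The Gapdh controls had a steeper gradient along the transcript, with differences of -1.60 at the 5' end, -0.72 in the middle and 0.26 at the 3' end.

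**Figure D3:**
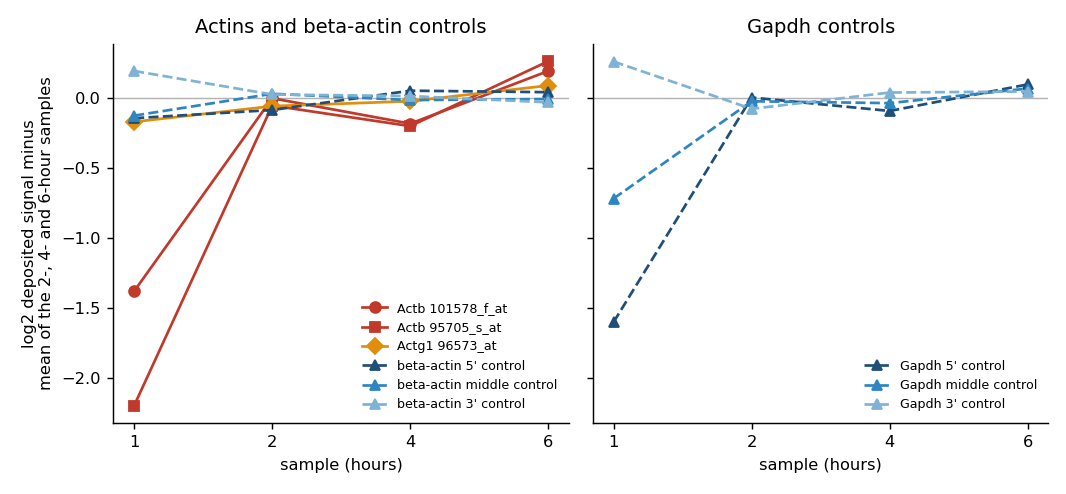
Deposited log2 signal relative to the mean of the 2-, 4- and 6-hour samples (vertical axis) in each sample (horizontal axis, hours), for the Actb and Actg1 probe sets with the beta-actin controls (left) and for the Gapdh controls (right); each point is 1 array and lines join 1 probe set. In the 1-hour sample the Actb probe sets lie at -2.20 and -1.38, the beta-actin controls between -0.15 and 0.19, and the Gapdh 5' control at -1.60.

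Cfl1, the main cofilin of neurons, had 5519.6, 7582, 9192 and 8139.9 in the order of hours (-0.68, SD 0.10, adjusted p 0.0321). That call was lost on the values as deposited and with equal medians, at an adjusted p of 0.0566 and 0.11, and without the 2- or the 6-hour sample. Cfl2, the muscle-type cofilin, had 392.5 in the 1-hour sample, against 323, 296 and 243 (0.50, SD 0.21, adjusted p 0.428), on the other side of zero from Cfl1. Cflar, an inhibitor of caspase-8 and no part of the cytoskeleton, entered by the first letters of its symbol and had 102, 148, 80.1 and 122.

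The Arp2/3 complex, which branches actin filaments, had 5 of 6 probe sets tested, 0 called and 0 with a range of 2-fold. Its subunits pointed both ways in the 1-hour sample. Arpc4 had 1475, 1882, 2384 and 2318 in the order of hours (-0.56, SD 0.17, adjusted p 0.17). Arpc2, which forms the core of the complex with Arpc4, had 11045, 8463, 8145 and 7228 (0.36, SD 0.15, adjusted p 0.259). Arpc1a had 1402, 1677, 2002 and 1590.1, Arpc5 had 597, 848.5, 762 and 641, and Arpc5l had 480.4 to 591.5.

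Among the myosins 10 of 14 probe sets were tested and 0 were called. Myo6, the myosin that moves towards the pointed end of actin, had 3 tested probe sets that disagreed. It had 229, 447, 339 and 359 by the first (-0.69, SD 0.19), 896, 710.5, 703 and 751 by the second (0.35, SD 0.04), and 595, 540.4, 479 and 390.0 by the last (0.40, SD 0.24). Myo5a, which brings endoplasmic reticulum into spines, had 196, 200.1, 223 and 171, and its other probe set had 1.3 to 5.5. Myo5b, which moves recycling endosomes, had 771, 1197, 897 and 1007 by its tested probe set. Myo1f, a myosin of immune cells, had 138, 183, 209.7 and 91.9 and was the 1 tested myosin with a range of 2-fold. Myo9a, Myo10, Myo7a and Myo1d had ranges of 0.62, 0.45, 0.22 and 0.18 on the log2 scale. Myo1c, below the filter, had 148 in the 4-hour sample, against 53.6, 56.9 and 54.1 at 1, 2 and 6 hours.

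Several genes had more than 1 tested probe set, which gives a check within the gene. Of 13 such genes, 7 had probe sets on opposite sides of zero in the 1-hour sample, and the median gap between the probe sets of a gene was 0.44 on the log2 scale. The same share over all genes is not given, so the count describes these genes only. Among the 7, Map1lc3b lay near zero by each probe set, at -0.005 and 0.06, and 1 of these signs depended on the scaling. The gap was 1.09 in Myo6, 0.85 in Tuba1a, 0.80 in Tubb3, 0.77 in Actb and 0.72 in Map4. In Actb and Kif5a each tested probe set lay more than 1 log2 unit below the other samples, and each of them carries a suffix. The beta-actin control probe sets, outside the tests, did not share this. They lay at -0.15, -0.13 and 0.19 on the deposited log2 scale. With the probe sets of each gene averaged first, 5 of 56 tested member genes were called in the 1-hour sample, all lower. They were Actb, Kif5a, Kif5c, Tuba1c and Tubb4a, beside 79 of all 4951 genes in either direction. Among members whose probe set has no suffix, 4 of 51 were called, all lower, namely Cfl1, Kif1a, Kif5c and Tubb4a. Beside these stood 175 of all 7453 probe sets, a count that includes suffixed probe sets and calls in either direction.

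**Figure D4:**
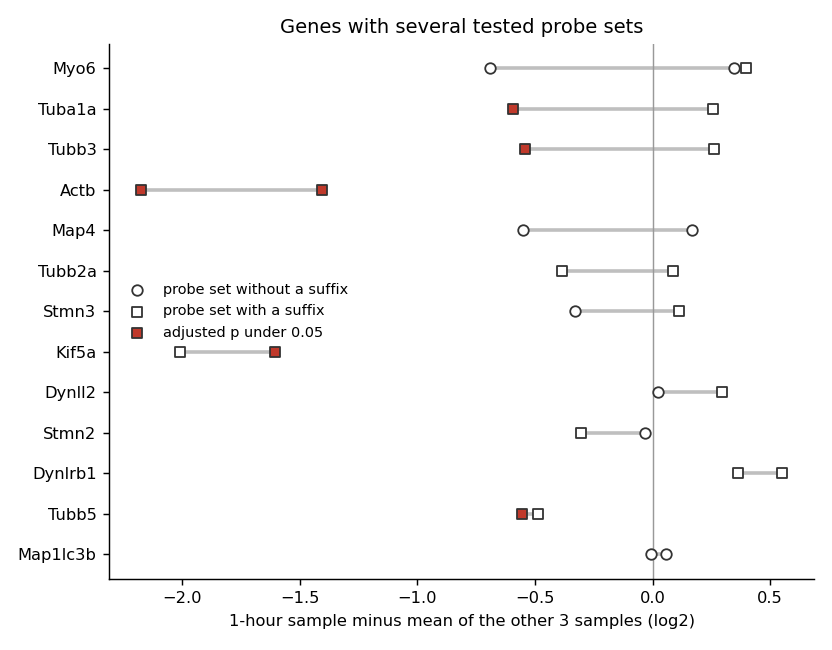
Difference of the 1-hour sample from the mean of the other 3 (horizontal axis, log2) for the 13 genes with several tested probe sets (rows, widest gap at the top). Circles are probe sets with no suffix, squares carry a suffix for possible cross-hybridization, and filled ones had an adjusted p under 0.05; the gap runs from 0.06 in Map1lc3b to 1.09 in Myo6.

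In the 2-, 4- and 6-hour samples, each set against the other 3, no member was called at an adjusted p under 0.05, and the share over all probe sets was 0% in each (limma). At an unadjusted p under 0.05 the members' count was 0 in each of the 3, beside 2.64%, 2.76% and 2.27% of all probe sets. It was 29 in the 1-hour sample, where 15.8% of all probe sets had such a p. In the 2-, 4- and 6-hour fits the spread includes the 1-hour sample, so the counts are not on an equal footing. In the 2-hour sample 1 member (Map2) was 2-fold or more higher and 0 were as far lower, against 1.27% and 1.72% of all. In the 4-hour sample 1 (Tubb4b) was higher and 0 lower (1.07% and 1.93% of all), and in the 6-hour sample 4 (Map2 and probe sets of Actb, Kif5a and Kif5c) were higher and 1, again Tubb4b, was lower (1.49% and 1.61% of all). For Map2, Actb, Kif5a and Kif5c the mean of the other 3 includes the low 1-hour value. Their 6-hour signals were 268, 3894, 182 and 458, against 338, 3127, 167 and 288 in the 2-hour sample. Between the 2- and 6-hour samples 0 of 75 members differed 2-fold, while 299 of all 7453 (4.01%) did.

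The spread over all 4 samples was near that of all probe sets and was smaller without the 1-hour sample. A range of 2-fold or more was found in 14 of the 75 tested members, against 17.9% of all probe sets. Over the 2-, 4- and 6-hour samples alone it was found in 3 members, Tubb4b, Map2 and Myo1f, against 9.04% of all. The median SD was 0.23 over all samples and 0.15 over those 3, beside 0.25 and 0.20 for all probe sets. With the 3 samples normalized by themselves the count was 4.

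**Figure D5:**
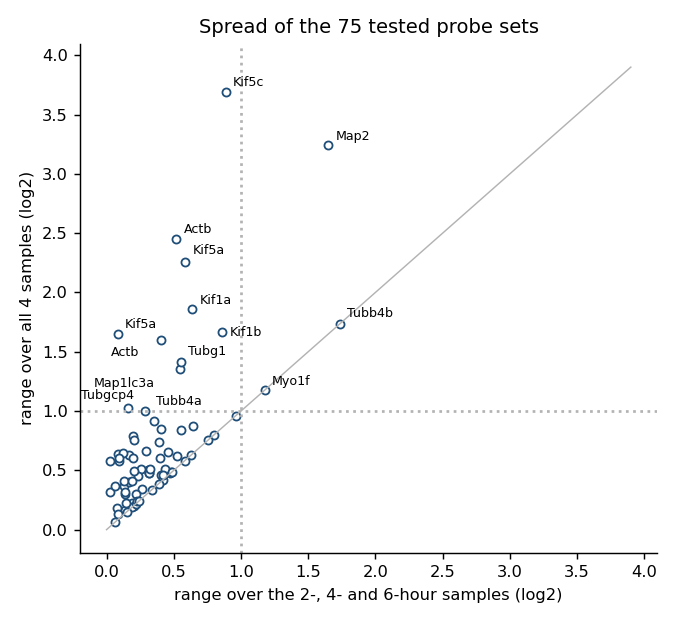
Range of each of the 75 tested member probe sets over all 4 samples (vertical axis, log2) against its range over the 2-, 4- and 6-hour samples (horizontal axis, log2); dotted lines mark 1 log2 unit and the solid line marks equal ranges. Of the 14 points above the horizontal dotted line, 3 (Tubb4b, Map2 and Myo1f) also lie right of the vertical one.

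A linear trend over the hours was called in 0 of the 75 members and in 0% of all probe sets (limma, 2 residual degrees of freedom, smallest adjusted p of a member 0.74). At an unadjusted p under 0.05, 8 members had a positive trend and 1 a negative one, against 3.57% and 2.67% of all. Those with a positive trend were Kif5c, both Actb probe sets, Kif1a, Tubg1, Map1lc3a, Tubb4a and Arpc4, with fitted changes from 1 to 6 hours of 0.62 to 2.88 on the log2 scale, and each of these had its lowest value in the 1-hour sample. Arpc2 had the negative one (-0.48).

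Partners of these families were read from lists that the rule did not use. Of 41 partners of microtubules and neurofilaments 29 had a probe set and 25 were tested. In the 1-hour sample 0 of the 25 were called lower, and 1 was called higher, Mapt, which encodes tau, at 9518 against 3925 to 4611 (1.06, SD 0.12, adjusted p 0.0113). The median of the 25 was 0.03. Of 50 partners of actin 40 had a probe set and 38 were tested. There, 1 was called lower, Coro1c, a coronin that binds actin filaments, at 650.3 against 1315 to 1362 (-1.01, SD 0.03, adjusted p 0.0262), and 0 higher, with a median of 0.02. Dctn1, the dynactin subunit that joins dynein to its cargo, and Klc1, the light chain of kinesin-1, lay at -0.42 and -0.42 (adjusted p 0.22 and 0.228), and the trend test called 0 in either list. Whether the members and their partners differ was not tested.

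Markers of other cells were set beside these values. In the 1-hour sample the tested neuron markers had a median of -0.01 (5 tested), astrocyte markers 0.02 (6), oligodendrocyte markers -0.12 (6), microglia markers -0.18 (6), endothelium markers 0.10 (6), muscle markers 0.24 (6), blood markers 0.68 (2) and choroid plexus markers 0.91 (4). The blood markers summed to a signal of 3492.5 at 1 hour, against 2296 to 2971, and their part in the results was not tested. The summed signal of the neuron markers was 31687 in the 1-hour sample, against 32803 to 32988. Within that list Syt1, a synaptic vesicle protein, lay at -0.89 (SD 0.33) and Eno2, the neuronal enolase, at -0.63 (SD 0.13), while Snap25 lay at 0.00 (SD 0.12). Across the 75 members, the 1-hour difference had a Spearman's rho of 0.04 with the genomic span of the gene and -0.21 with the mean level, which is given as a description because all points share the same 4 arrays.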

How the data were processed

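Expression arrays of 1 colour were measured in 4 samples, which formed 1 group of handled controls. The deposited table holds an intensity per probe set, on a linear scale, for 12488 probe sets. From the deposited values themselves, the authors had scaled the arrays to a common trimmed mean (500.3 after trimming 2% at each end). The array software is not given in the sources used here. The 66 control probe sets stayed out of all tests. Symbols came from the platform annotation (396 probe sets had several and 1193 none), and all 101 members matched the gene table of GRCm38.p6 by gene identifier.

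Arrays were quantile normalized, values below the 20th percentile were set to it, and log2 was taken. Probe sets with a mean at or above the 40th percentile were tested with limma 3.58.1 in R 4.3.3 (lmFit, eBayes with an intensity trend). One fit took time as a linear term, and 4 fits set each sample against the other 3. P-values, from two-sided tests with Benjamini-Hochberg adjustment, were taken over the 7453 tested probe sets and measure only the spread between these samples. The fits were tested on simulated data. Figures used matplotlib 3.10.9.

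Members and lists were chosen with earlier results of these data known. Named were members called in a fit, the 4 with the widest range in each role, preset genes, the 3 furthest above and below in each sample, genes whose probe sets differ in direction, and members outside the subject of the rule. Other members named for their role were chosen after their values were seen. Alternatives changed the scaling, floor, filter, prior, coding of time, handling of probe sets and the samples used.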

Additional observations from a re-analysis of the deposited data

Results flagged for a closer look

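In 9 member probe sets above the floor in all samples, 1 sample lay far from the other 3, by a gap that took up most of the whole range. Chance gives about 1 such case in 20 groups. Among tested probe sets these were 7 of the 75 members (9.33%), and 6.75% of all. Low values in the 1-hour sample were Kif5a at 339.6 against 1038 to 1089.6, Nefl at 525.1 against 786 to 846, Tubb3 at 7369.5 against 9562 to 10600.2, and Tubb5 at 7827.2 against 10769 to 11118. High values there were Tubgcp4 at 535.6 against 273 to 309.9, Tubgcp3 at 371.2 against 256 to 260.5, Kif1c at 442.1 against 367.5 to 376, and Kif20a, which was not tested, at 119.9 against 36.9 to 41.9. In the 4-hour sample the high value was Myo1c, also not tested, at 148.3 against 53.6 to 56.9.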

How the results depend on the processing

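Calls of members in the 1-hour sample depended on the settings. Against 11, the count was 7 with equal medians, 0 with the floor at the 40th percentile, 4 with no filter on low values (3 of them higher), 0 for eBayes without an intensity trend, 5 with each gene's probe sets averaged and 4 with suffixed probe sets left out of the members. It was 10 on the values as deposited (1 of them higher) and 11 with the floor at the 10th percentile. The 10 were a different set. Cfl1 and the called probe sets of Tubb3, Tubb5 and Tuba1a dropped out, and Map1lc3a, Tubg1 and the second Tuba1a probe set, which was higher, came in. Leaving out 1 other sample gave 5 (without the 2-hour sample) to 12 (without the 4-hour sample, 1 of them higher), and 6 without the 6-hour sample. Over all probe sets the 1-hour count was 175, out of 7453 tested, and 272 as deposited, 222 with equal medians, 3 with the higher floor, 365 of 12422 with no filter, 0 without an intensity trend, 79 of 4951 with genes averaged, and 87, 242 and 108 without the 2-, 4- and 6-hour samples. With equal medians the members' count was thus lower while the count over all was higher. Of these calls 10.3% were higher, against 20.2% as deposited, 21.6% with equal medians and 89.0% with no filter. The members' median in the 1-hour sample was -0.22 with the higher floor, -0.033 with no filter, and -0.20 to -0.11 with 1 other sample left out. Members with a range of 2-fold numbered 28 of 101 with no filter, beside 27.6% of all probe sets. With 1 sample left out they numbered 4 (without the 1-hour sample) to 12, and 9 without the 6-hour sample. The share of all probe sets was then 8.95% (without the 1-hour sample) to 13.8%. The cause of these changes was not tested. For the 10 members 2-fold lower in the 1-hour sample, 16 of 86 repeats lost a call and 3 gained a call. All 86 kept the direction. A call could be lost only by members called in the main fit, namely both Actb probe sets, Kif1a, Kif5c and the first Kif5a probe set. The floor at the 40th percentile, which lifts low values, gave a difference of -0.44 for the second Kif5a probe set (against -2.01), -0.93 for Map2 (against -2.59), -1.48 for Kif5c (against -3.17) and -0.61 for Kif1b (against -1.31). Trend calls of members were 0 in every alternative run. No paired analysis was possible because there was 1 group. Low values limit Kif5c and Map2, whose 1-hour signals lay below the floor.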

Other observations

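Of the 7 probe sets left out because they carry several symbols, at least 1 of them from these families, 1 had a signal of 15204 in the 1-hour sample, against 3382, 3981 and 3482 at 2, 4 and 6 hours. Another had 18585 in the 1-hour sample, against 25407, 22998 and 23836. A further probe set had 386 there, against 820.4, 798 and 804. They are given as values, with no gene named.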
